A study of Mus musculus with 8 samples.

Results

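The 10 genes described here release calcium from the sarcoplasmic reticulum of heart muscle cells, hold it there or remove it from the cytoplasm, and were measured in ventricles of mouse embryos at embryonic day (E) 15.5. The genes, *Ryr2*, *Trdn*, *Jph2*, *Itpr1*, *Casq2*, *Casq1*, *Hrc*, *Atp2a2*, *Pln* and *Slc8a1*, were chosen by name for their roles, with earlier results of these data known. They were matched by symbol, and all 10 were found among the 53465 genes of the table. Poly(A) RNA was sequenced from 4 wild-type (WT) and 4 mutant libraries, each from the ventricle of 1 embryo. The mutants, labelled Rosa26Nrg-1;Nkx5.5-Cre and named *Nrg1GOF* in what follows, hold an *Nrg1* transgene in the Rosa26 locus that Cre switches on. The series title and the study name the driver *Nkx2.5-Cre*, which acts in the cardiac *Nkx2.5* lineage, so neuregulin-1, a ligand of ErbB receptors, is overproduced in those cells from early heart development onwards. Whether WT embryos carried Cre, their strain background, sex and litter were not given in the sources used here, and an effect of Cre itself cannot be told apart from that of the transgene.

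In a beating heart muscle cell, calcium that enters through the surface membrane opens ryanodine receptors in the sarcoplasmic reticulum, and the calcium released from this store triggers contraction. The cell relaxes when the pump SERCA returns calcium to the store and the sodium-calcium exchanger expels the rest. In the embryonic heart this store is still developing, the surface exchange of calcium carries a larger part of each beat, and the amounts of pump and release channel normally rise towards birth.

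Library totals ranged from 18754259 to 26786039 expected counts, apart from *Nrg1GOF* library 4 with 8038641. Gene levels are in CPM, counts-per-million of the scaled library total, and a gene is described as called where the edgeR quasi-likelihood test gave an adjusted p under 0.05. *Nrg1* itself lay between 59.7 and 63.7 CPM in *Nrg1GOF* and between 3.07 and 4.47 CPM in WT, so the libraries matched their labels. The 12 cardiomyocyte markers were present in every library and summed to between 55340 and 57830 CPM in WT and between 43650 and 52120 CPM in *Nrg1GOF*, and 7 of them were lower and 0 higher in *Nrg1GOF*. Of the 8 epicardial and fibroblast markers 7 were higher and 1 lower, and all 5 macrophage markers were higher. Of 7 atrial markers 4 were higher and 0 lower, and of 8 endothelial markers likewise 4 and 0. Of 7 smooth muscle and mural markers 3 were higher and 2 lower. Beside these counts, 15.9% of all tested genes were higher and 12.8% lower. The WT libraries fell into close pairs over the 15580 tested genes. The median absolute log2 difference was 0.097 between WT libraries 1 and 2 and 0.083 between WT libraries 3 and 4, against 0.166 to 0.175 across the pairs. The labels name no batch for this split, so values against each pair are given for those of the 10 genes that differed most between the pairs.

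Of the 10 genes, 6 were called, 2 higher and 4 lower in *Nrg1GOF*. Over all 15580 tested genes 28.7% were called, 15.9% higher and 12.8% lower. The higher genes were *Casq1* and *Casq2*, which bind calcium inside the store. The lower genes were *Atp2a2* and *Pln*, the pump and its inhibitor, and *Trdn* and *Jph2*, which build the release site. The median log2 fold change of the 10 genes was -0.16, beside -0.01 over all tested genes, where the median absolute log2 fold change was 0.20. In 6 of the 10 the CPM of the groups did not overlap, beside 30.7% of all tested genes. Because the 10 genes were chosen with earlier results of these data known, these counts are not an unbiased contrast with all genes. In bulk RNA, fewer heart muscle cells and less RNA per heart muscle cell cannot be told apart. The changes of cardiomyocyte, fibroblast, macrophage, atrial, endothelial and smooth muscle markers counted above went along with these changes, and their part in them was not tested. With the mean level of the atrial markers as a covariate 3 of the 10 genes were called, *Atp2a2*, *Pln* and *Casq1*. *Casq2* (0.38), *Trdn* (-0.28) and *Jph2* (-0.27) kept fold changes of like size there, with larger standard errors. Scaled to the summed cardiomyocyte markers instead, the median log2 fold change of all tested genes moved from -0.01 to 0.24, and 4 of the 10 genes were called higher and 2 lower. Under that scaling *Hrc* and *Itpr1* gained a call, and *Trdn* and *Jph2* lost theirs.

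**Figure D1:**
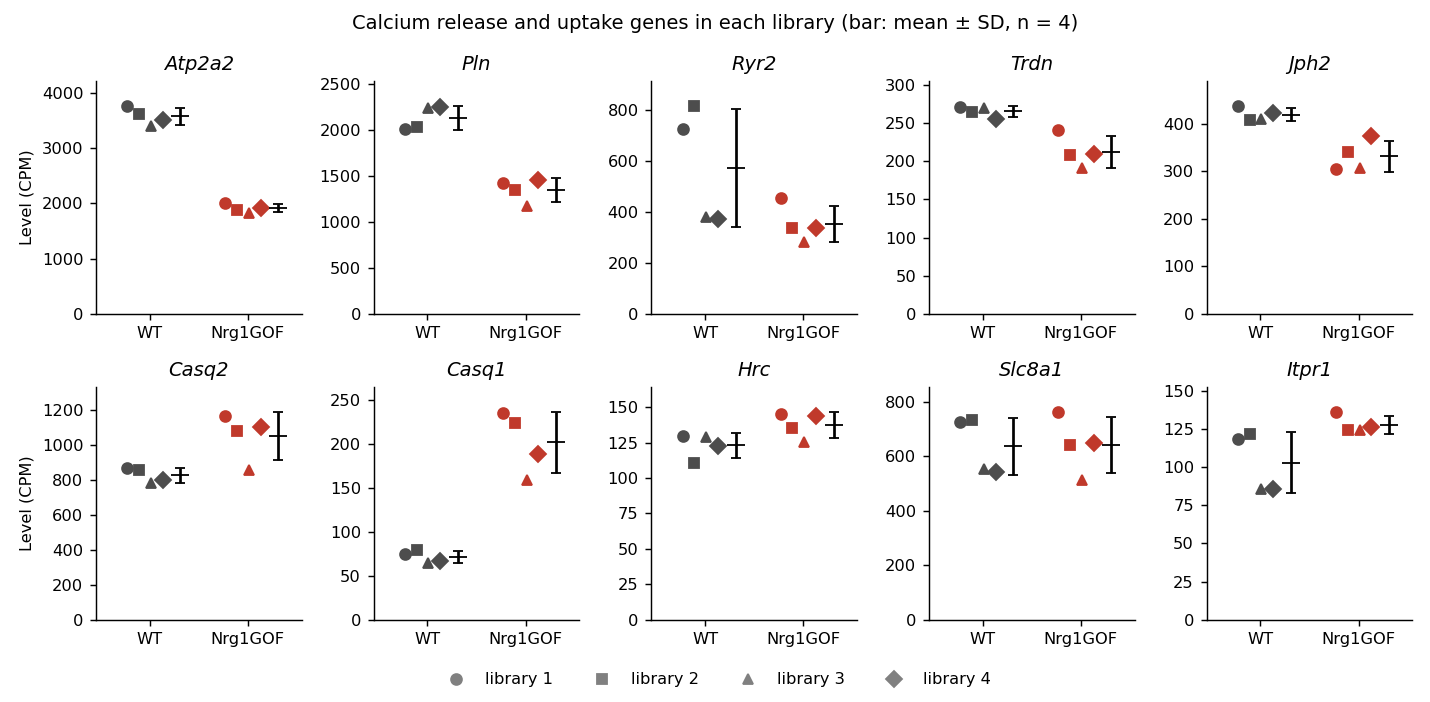
Level (CPM, linear axis from 0) of the 10 calcium genes in each library, with WT in grey and *Nrg1GOF* in red. Marker shapes are library numbers and do not pair embryos, and bars are mean ± SD (n = 4). *Atp2a2*, *Pln*, *Trdn* and *Jph2* lay lower in every *Nrg1GOF* library, *Casq1* and *Itpr1* lay higher, and *Ryr2* was spread within WT.

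Calsequestrins are the main calcium buffers of the store. *Casq1* encodes the form that predominates in skeletal muscle and *Casq2* the cardiac form. The promoters of both genes, which rose, and of *Pln*, which fell, are shown as examples of the 7 searched. Each is the 250 bases upstream of the RefSeq start on GRCm38.p6, 5′ to 3′ on the strand of the gene. *Casq1* is at chr1:172219896-172220145 (minus strand), *Casq2* at chr3:102086165-102086414 (plus strand) and *Pln* at chr10:53337436-53337685 (plus strand). Capitals mark matches to 5 motifs searched on both strands, namely the TATA box (TATAAA), the GATA site (AGATAA), the E-box (CACGTG), the MEF2 site and the CArG box.
Casq1: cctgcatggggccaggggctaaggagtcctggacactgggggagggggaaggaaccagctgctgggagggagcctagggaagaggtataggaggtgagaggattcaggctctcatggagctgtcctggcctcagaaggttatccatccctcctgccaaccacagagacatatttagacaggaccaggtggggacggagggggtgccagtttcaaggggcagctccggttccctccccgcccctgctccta
Casq2: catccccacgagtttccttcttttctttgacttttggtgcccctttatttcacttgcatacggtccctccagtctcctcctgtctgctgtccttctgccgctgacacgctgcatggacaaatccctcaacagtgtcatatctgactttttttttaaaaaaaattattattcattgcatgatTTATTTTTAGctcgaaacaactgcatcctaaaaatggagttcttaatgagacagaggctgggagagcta
Pln: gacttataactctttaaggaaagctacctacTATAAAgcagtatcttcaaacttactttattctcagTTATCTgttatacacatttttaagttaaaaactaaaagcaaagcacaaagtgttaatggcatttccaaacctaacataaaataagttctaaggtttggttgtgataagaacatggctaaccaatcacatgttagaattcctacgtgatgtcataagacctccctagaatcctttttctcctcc

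None of the 5 motifs was found in the *Casq1* window. The *Casq2* window held 1 MEF2 match, whose first base lay 69 bases upstream of the start. In the *Pln* window there were 1 TATA box 219 bases upstream and 1 GATA match 183 bases upstream. Of 32851 promoter windows of the same length, 12.4% held the TATA box, 9.99% the GATA site, 6.02% the E-box, 2.92% the MEF2 site and 1.47% the CArG box. RefSeq windows were matched for 7 of the 10 genes, and *Atp2a2*, *Trdn* and *Itpr1* had none. Among the windows not shown, those of *Ryr2*, *Jph2* and *Hrc* held no match. That of *Slc8a1* held 1 GATA match, 68 bases upstream. A match describes letters in a window and is not a bound site. Both calsequestrin genes rose and are described next, while *Pln* fell and is described with the pump.

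*Casq1* (ENSMUSG00000007122, GRCm38 chromosome 1, 172209894 to 172219868) rose more than any other of the 10 genes. WT libraries 1 to 4 held 75.1, 79.5, 64.7 and 67.0 CPM. *Nrg1GOF* libraries 1 to 4 held 235, 224, 159 and 189 CPM. Every *Nrg1GOF* library lay well above the highest WT library, with library 3 the lowest of the 4. The mean rose from 71.6 ± 6.93 CPM to 202 ± 34.5 CPM (SD, n = 4 each), 2.82-fold, with a log2 fold change of 1.496 (SE 0.12, edgeR adjusted p = 4.17e-05). Of the 15580 tested genes, 198 had a higher log2 fold change. Because *Casq1* marks skeletal muscle, 9 other skeletal muscle markers were read beside it. *Myod1*, which defines that lineage, was at 0 in all 8 libraries, and of 6 tested markers 2 were higher and 1 lower. The higher ones were *Actn3* (log2 fold change 1.31) and *Myh8* (1.25), and the lower one was *Tnni2* (-1.50). Summed over the 9 markers, the level was 14.3 to 18.6 CPM in WT and 17.5 to 21.9 CPM in *Nrg1GOF*. The part of such cells in the rise of *Casq1* was not tested.

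*Casq2* (ENSMUSG00000027861, chromosome 3, 102086415 to 102146514) rose less. Its level was 868, 855, 784 and 800 CPM in WT libraries 1 to 4 and 1166, 1083, 856 and 1106 CPM in *Nrg1GOF* libraries 1 to 4. *Nrg1GOF* library 3 lay within the WT range and the other 3 lay above it. Means were 827 ± 40.9 CPM in WT and 1053 ± 136 CPM in *Nrg1GOF*, a log2 fold change of 0.35 (SE 0.09, edgeR adjusted p = 0.0177). This call was lost without any 1 of *Nrg1GOF* library 1 or 2 or WT library 3 or 4, with adjusted p between 0.051 and 0.056 and a log2 fold change between 0.30 and 0.34. Scaled to the cardiomyocyte markers *Casq2* was at 0.59 (adjusted p = 0.000147), or 0.35 relative to the median of all genes under that scaling. Per kilobase of exon, *Casq1* made up 10.4% to 11.5% of the calsequestrin transcripts in WT and 19.3% to 22.4% in *Nrg1GOF*. The cardiac form stayed the larger share in every library.

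The third gene of the store interior, *Hrc* (ENSMUSG00000038239, chromosome 7, 45335290 to 45338974), encodes a histidine-rich calcium-binding protein that also contacts the pump and triadin. It lay between 111 and 130 CPM in WT and between 126 and 145 CPM in *Nrg1GOF*, so the groups overlapped. The log2 fold change of *Hrc* was 0.16 (SE 0.07, edgeR adjusted p = 0.116). Without *Nrg1GOF* library 3 it was 0.21 and was called, with an adjusted p of 0.044. *Hrc* was also called when scaled to library totals (0.20, adjusted p = 0.0416) and to the cardiomyocyte markers (0.40, adjusted p = 0.00157, or 0.16 relative to the median of all genes).

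*Atp2a2* (ENSMUSG00000029467, chromosome 5, 122453513 to 122502225, minus strand) encodes SERCA2, the pump that refills the store after each beat. In WT libraries 1 to 4 it stood at 3768, 3630, 3400 and 3518 CPM. In *Nrg1GOF* libraries 1 to 4 the values were 2015, 1888, 1831 and 1919 CPM. The *Nrg1GOF* libraries were close to each other, and the gap between the groups was wider than the range within either. From 3579 ± 157 CPM in WT the mean fell to 1913 ± 76.9 CPM in *Nrg1GOF* (SD, n = 4 each), 46.5% lower. On the log2 scale this was -0.90 (SE 0.06, edgeR adjusted p = 8.56e-06). Of the 15580 tested genes 7 lost more CPM than *Atp2a2*. Among the 75 genes with at least 1000 CPM in WT, 0 had a lower log2 fold change. The difference remained with each WT pair alone, at -0.95 against WT libraries 1 and 2 and -0.85 against WT libraries 3 and 4. Scaled to the cardiomyocyte markers it was -0.66, or -0.90 relative to the median of all genes under that scaling.

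*Pln* (ENSMUSG00000038583, chromosome 10, 53337667 to 53345987) encodes phospholamban, the small membrane protein that holds SERCA2 back until it is phosphorylated. WT libraries 1 to 4 held 2009, 2033, 2242 and 2254 CPM, against 1420, 1348, 1171 and 1456 CPM in *Nrg1GOF* libraries 1 to 4. Every *Nrg1GOF* library was lower than every WT library. The mean of *Pln* went from 2134 ± 132 CPM to 1349 ± 127 CPM, 36.8% lower, with a log2 fold change of -0.66 (SE 0.08, edgeR adjusted p = 0.000271). With WT libraries 1 and 2 alone as controls it was -0.59, and with WT libraries 3 and 4 alone -0.73. Scaled to the cardiomyocyte markers it was -0.425 (adjusted p = 0.000628), or -0.66 relative to the median of all genes under that scaling. Exons of *Pln* share 141 bases with *Cep85l* and 1644 bases with *Gm47644*, both on the opposite strand. The strand setting used for counting was not given in the sources used here, so reads of these genes may not be kept apart there. The libraries were directional, and over the 8 libraries *Gm47644* summed to 767 expected counts and *Cep85l*, over its whole length, to 4973, against at least 11650 for *Pln* in each.

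The pump and its inhibitor thus both fell. The ratio of *Pln* to *Atp2a2* counts, which does not depend on library scaling, was 0.53, 0.56, 0.66 and 0.64 in WT libraries 1 to 4 and 0.70, 0.71, 0.64 and 0.76 in *Nrg1GOF* libraries 1 to 4. *Nrg1GOF* library 3 lay within the WT range. The log2 ratio was higher by 0.24 in *Nrg1GOF*, with a two-sided exact permutation p of 0.0857, which is 0.103 after adjustment over the 6 ratios compared.

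*Ryr2* (ENSMUSG00000021313, chromosome 13, 11553102 to 12106945, minus strand) encodes the ryanodine receptor of heart muscle, the channel through which the store empties. WT libraries 1 and 2 held 725 and 817 CPM, but WT libraries 3 and 4 held 378 and 372 CPM. *Nrg1GOF* libraries 1 to 4 held 453, 337, 282 and 335 CPM. The spread within WT was thus as large as the difference between the groups, and *Nrg1GOF* library 1 lay above both lower WT libraries. With all 4 WT libraries the log2 fold change was -0.70 (SE 0.26, edgeR adjusted p = 0.0739), which was not called. Set against WT libraries 1 and 2 alone, *Ryr2* differed by -1.13 (adjusted p = 0.00178), but set against WT libraries 3 and 4 alone by -0.09 (adjusted p = 0.725). *Ryr2* therefore gave no single answer in these libraries. Leaving out WT library 3 or WT library 4 gave -0.86 in both cases, which was called. It was also called without the low count filter (-0.70, adjusted p = 0.0451), and with the atrial covariate it stood at -1.20 (adjusted p = 0.0639) and was not called. Scaled to the cardiomyocyte markers it was -0.455 (adjusted p = 0.166), or -0.69 relative to the median of all genes under that scaling.

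**Figure D2:**
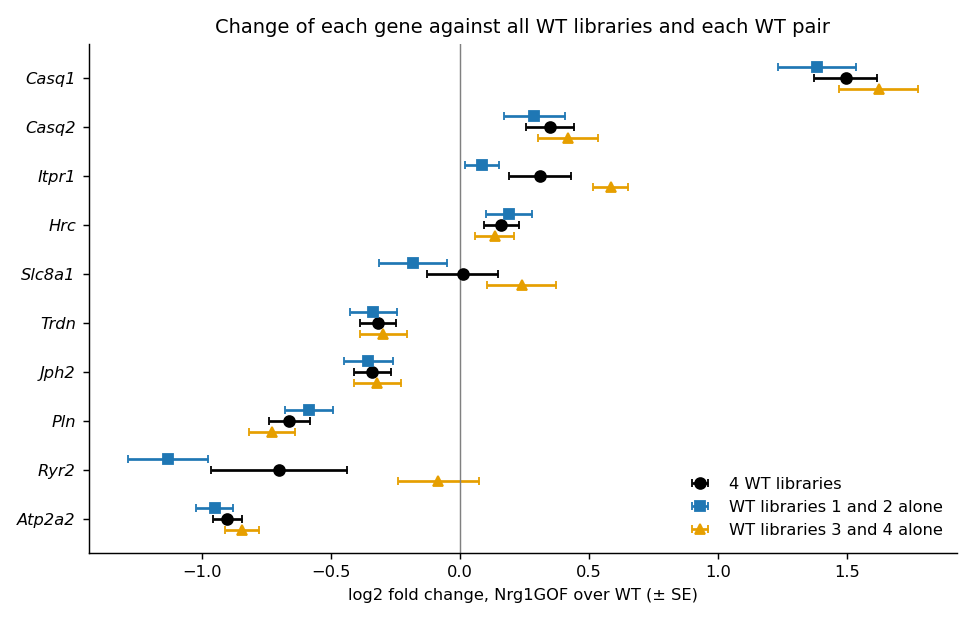
Log2 fold change of *Nrg1GOF* over WT for each of the 10 genes (points, with bars of ± SE), against all 4 WT libraries (black circles), WT libraries 1 and 2 alone (blue squares) and WT libraries 3 and 4 alone (orange triangles). The 3 values lay close together for most genes but ran from -1.13 to -0.09 for *Ryr2*, from 0.08 to 0.58 for *Itpr1* and from -0.18 to 0.24 for *Slc8a1*.

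The other genes that moved with the WT pairs were also long. The level of WT libraries 1 and 2 exceeded that of WT libraries 3 and 4 by 1.04 on the log2 scale for *Ryr2*, 0.49 for *Itpr1* and 0.41 for *Slc8a1*, each with over 15000 annotated exon bases. For the other 7 genes this difference lay between -0.15 and 0.23. Over 380 other protein-coding genes with at least 15000 exon bases its median was 0.31. It was 0.08 between 8000 and 15000 bases, and between -0.02 and 0.01 in the shorter classes. With the mean level of the long genes as a covariate, chosen after the data were seen, *Ryr2* had a log2 fold change of -0.84 (edgeR adjusted p = 0.000328) and *Itpr1* of 0.23 (adjusted p = 0.0109). Length was not the sole trait of the split. The 8 red blood cell markers summed to 13040 and 12190 CPM in WT libraries 1 and 2 and to 5506 and 4420 CPM in WT libraries 3 and 4. The atrial myosin gene *Myh6* stood at 3718 and 3639 CPM in the first pair and at 2003 and 1960 CPM in the second. What set the split was not tested.

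**Figure D3:**
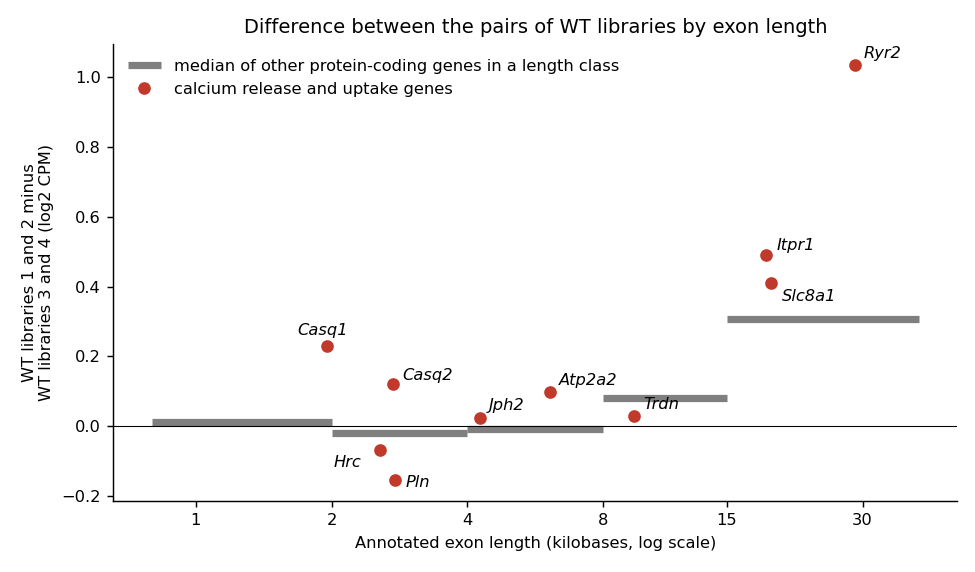
Mean log2 CPM of WT libraries 1 and 2 minus that of WT libraries 3 and 4 (vertical axis) against annotated exon length in kilobases (log axis). Red points are the 10 calcium genes, and grey bars are medians of other protein-coding genes in 5 length classes, of which the longest stands at 0.31.

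The next genes encode partners of the release channel. *Trdn* (ENSMUSG00000019787, chromosome 10, 33080554 to 33476709) encodes triadin, which ties calsequestrin to the ryanodine receptor. Its level was 271, 266, 271 and 255 CPM in WT libraries 1 to 4 and 241, 209, 191 and 210 CPM in *Nrg1GOF* libraries 1 to 4. The groups did not overlap, although *Nrg1GOF* library 1 came near the lowest WT library. *Trdn* was 19.9% lower, with a log2 fold change of -0.32 (SE 0.07, edgeR adjusted p = 0.00739). *Jph2* (ENSMUSG00000017817, chromosome 2, 163336242 to 163397993, minus strand) encodes junctophilin-2, which holds the store membrane against the surface membrane. It was at 438, 409, 410 and 423 CPM in WT libraries 1 to 4 and at 306, 340, 307 and 374 CPM in *Nrg1GOF* libraries 1 to 4. Every *Nrg1GOF* library was again lower than every WT library. *Jph2* was 21.1% lower, with a log2 fold change of -0.34 (SE 0.07, edgeR adjusted p = 0.00576). Scaled to the cardiomyocyte markers, *Trdn* stood at -0.08 (adjusted p = 0.39) and *Jph2* at -0.10 (adjusted p = 0.214), or -0.31 and -0.34 relative to the median of all genes under that scaling. With WT pairs summed they were -0.32 (adjusted p = 0.0613) and -0.34 (adjusted p = 0.0504). With the atrial covariate they were -0.28 (adjusted p = 0.172) and -0.27 (adjusted p = 0.168).

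*Itpr1* (ENSMUSG00000030102, chromosome 6, 108213096 to 108551109) encodes an inositol trisphosphate receptor, a second kind of store channel that is widely used outside heart muscle. WT libraries 1 to 4 held 119, 122, 85.4 and 85.8 CPM, and *Nrg1GOF* libraries 1 to 4 held 136, 124, 124 and 126 CPM. The lowest *Nrg1GOF* library lay just above the highest WT library. With a log2 fold change of 0.31 (SE 0.12, edgeR adjusted p = 0.0836), *Itpr1* was not called. It was 0.08 (adjusted p = 0.436) against WT libraries 1 and 2 alone and 0.58 (adjusted p = 0.000535) against WT libraries 3 and 4 alone. Without WT library 1 or WT library 2 it was called, at 0.39 and 0.40. Scaled to the cardiomyocyte markers it was 0.56 (adjusted p = 0.00394), or 0.32 relative to the median of all genes, and scaled to library totals 0.35 (adjusted p = 0.0459). With a covariate of the atrial markers it was 0.03 (adjusted p = 0.938).

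*Slc8a1* (ENSMUSG00000054640, chromosome 17, 81373105 to 81738377, minus strand) encodes NCX1, the sodium-calcium exchanger that expels calcium across the surface membrane. It lay at 725, 732, 552 and 542 CPM in WT libraries 1 to 4 and at 762, 643, 513 and 650 CPM in *Nrg1GOF* libraries 1 to 4. The groups covered nearly the same range. The log2 fold change of *Slc8a1* was 0.01 (SE 0.14, edgeR adjusted p = 0.969), and its sign depended on which libraries were kept. At this spread a small difference in *Slc8a1* was not detectable.

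Relative to the pump, the exchanger stood higher in *Nrg1GOF*. The ratio of *Slc8a1* to *Atp2a2* counts was between 0.154 and 0.202 in WT and between 0.280 and 0.378 in *Nrg1GOF*, 1.88-fold on average. The ratios of 2 more pairs did not overlap between the groups. *Casq1* to *Casq2* lay between 0.0826 and 0.0931 in WT and between 0.171 and 0.206 in *Nrg1GOF*, 2.21-fold. *Itpr1* to *Ryr2* lay between 0.149 and 0.230 in WT and between 0.300 and 0.440 in *Nrg1GOF*, 1.95-fold. This ratio differed between the WT pairs, at 0.164 and 0.149 in WT libraries 1 and 2 and 0.226 and 0.230 in WT libraries 3 and 4. In each of these 3 the two-sided exact permutation p was 0.0286, the smallest that 4 against 4 libraries allow, and 0.0571 after adjustment over 6 ratios, so none passed 0.05. *Hrc* to *Casq2* was lower by 0.18 on the log2 scale (exact permutation p = 0.0571, adjusted 0.0857). *Ryr2* to *Atp2a2* differed by 0.27 on the log2 scale (exact permutation p = 0.429), with WT library 2 as high as the highest *Nrg1GOF* library.

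**Figure D4:**
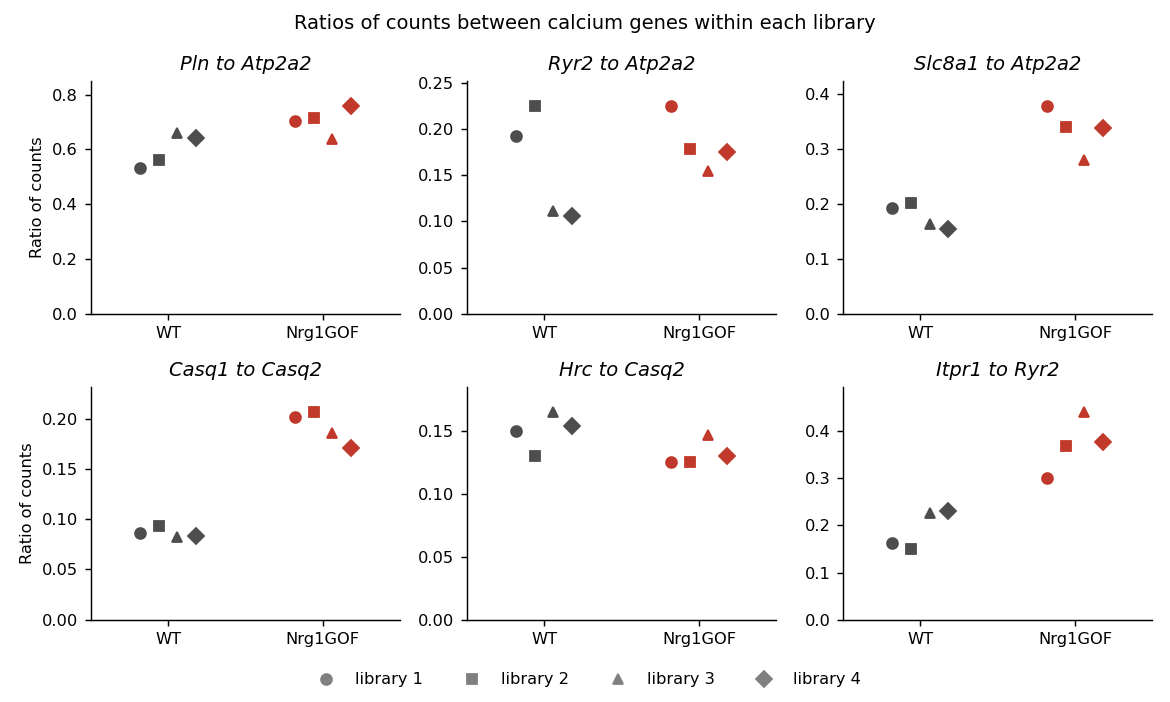
Ratio of counts (linear axis from 0) between 6 pairs of the calcium genes in each library, with WT in grey and *Nrg1GOF* in red and marker shapes for library numbers. The groups are apart for *Slc8a1* to *Atp2a2*, *Casq1* to *Casq2* and *Itpr1* to *Ryr2*, and overlap for the other 3 ratios.

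Levels of different genes were compared per kilobase of annotated exon. In WT the order was *Pln*, *Atp2a2*, *Casq2*, *Jph2*, *Hrc*, *Casq1*, *Slc8a1*, *Trdn*, *Ryr2* and *Itpr1*. *Pln* led with 728 to 817 CPM per kilobase and *Itpr1* came last with 4.66 to 6.66. Neighbours from *Casq1* to *Ryr2* overlapped in range in WT, and the other neighbours did not. In *Nrg1GOF* the order was *Pln*, *Casq2*, *Atp2a2*, *Casq1*, *Jph2*, *Hrc*, *Slc8a1*, *Trdn*, *Ryr2* and *Itpr1*. There the ranges of *Pln* and *Casq2*, of *Casq2* and *Atp2a2*, and of *Casq1* and *Jph2* overlapped. *Casq1* thus stood at place 6 in WT and place 4 in *Nrg1GOF*, and *Casq2* came level with the pump, at 313 to 426 CPM per kilobase beside 301 to 331. Exon length counts all annotated transcripts and overstates that of the RNA in use for *Ryr2*, *Trdn* and *Itpr1*. With the longest transcript as the length, *Trdn* took place 5 in WT and place 7 in *Nrg1GOF*, and *Casq1* took place 7 in WT and place 4 in *Nrg1GOF*.

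Paralogs were compared as shares of the transcripts of their family per kilobase. *Atp2a2* was at least 99.3% of the SERCA transcripts in every library. Its paralog *Atp2a3*, found mainly outside muscle, averaged 7.23 CPM in WT and 8.99 CPM in *Nrg1GOF* and was not called (log2 fold change 0.33, edgeR adjusted p = 0.0683), although it was called without *Nrg1GOF* library 4, by limma-voom and under cardiomyocyte scaling, and *Atp2a1*, the skeletal form, held 1 to 7 counts per library and was not tested. The SERCA family as a whole went from 590 ± 25.8 to 316 ± 12.5 CPM per kilobase (SD, n = 4 each). *Ryr2* was 98.0% to 98.4% of the ryanodine receptor transcripts in WT and 93.6% to 96.6% in *Nrg1GOF*. *Ryr3* had a log2 fold change of 0.51 (edgeR adjusted p = 0.266) and was called against WT libraries 3 and 4 alone, at 1.25 (adjusted p = 0.00483). With the atrial covariate its sign turned, at -0.55 (adjusted p = 0.24). *Ryr1*, with 4 to 9 counts per library, was not tested. *Itpr2* had a log2 fold change of 0.35 (adjusted p = 0.0832) and *Itpr3* one of 0.06 (adjusted p = 0.669). *Itpr2* was called without WT library 2, as it was with WT libraries 3 and 4 as the sole controls (0.64, adjusted p = 0.00107), with the replicate block (0.36, adjusted p = 0.0241), scaled to library totals (0.39, adjusted p = 0.0474) or to the cardiomyocyte markers (0.60, adjusted p = 0.00391), and with the long gene covariate (0.25, adjusted p = 0.0168). *Itpr1* kept 47.7% to 51.1% of its family in all 8 libraries. *Jph1*, the junctophilin shared with skeletal muscle, stood at 0.09 (adjusted p = 0.353) and *Jph4* at 0.32 (adjusted p = 0.492), and *Jph3* was too low to test.

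The genes whose profiles over the 8 libraries were closest to the highest and lowest of the 10 were found by the root mean square difference of centred log2 CPM. Genes picked in this way have fold changes near that of the gene they match, so these are no separate result. For *Casq1* they included *Gm1966* (0.129) and *Ctss* (0.141). For *Atp2a2* they were *Gng2* (0.039), *Mtus2* (0.057) and *Ppargc1a* (0.068). *Ppargc1a*, a coactivator of mitochondrial genes, fell from 190 ± 5.01 to 102 ± 3.44 CPM, a log2 fold change of -0.90. *Ctss*, a protease abundant in macrophages, rose from 5.23 ± 0.52 to 15.2 ± 2.64 CPM.

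A wider set of 85 calcium handling genes in 7 role lists was read beside the 10 genes. Of these 82 were in the table and 78 were tested, with a median log2 fold change of 0.08. Among the tested genes 25 were higher and 14 lower, beside 15.9% higher and 12.8% lower of all tested genes. Scaled to the cardiomyocyte markers the split was 42 higher and 4 lower, and scaled to library totals 29 higher and 12 lower. Over all tested genes the split was 5867 higher and 493 lower under the first scaling and 2874 higher and 1521 lower under the second. The genes *Strit1*, *Erln* and *Arln* were not matched. The role lists, too, were chosen with earlier results of these data known.

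Luminal calcium-binding proteins formed the list with the largest share of calls. Of 9 tested genes 8 were higher and 0 lower, beside 15.9% higher and 12.8% lower of all tested genes. The median log2 fold change of the list was 0.41. The remaining gene, *Srl*, averaged 1069 CPM in WT and 1120 CPM in *Nrg1GOF*. It was not called, with a log2 fold change of 0.07 (edgeR adjusted p = 0.552). *Rcn3*, a reticulocalbin of the secretory pathway, stood at 66.2 to 81.8 CPM in WT and at 135 to 156 CPM in *Nrg1GOF*, with a log2 fold change of 1.00 (edgeR adjusted p = 3.2e-05). *Calu*, encoding calumenin, had a log2 fold change of 0.51, and so did *Hspa5*, encoding the chaperone BiP, while *Calr*, encoding calreticulin, had one of 0.46. With the atrial covariate *Hspa5* was at 0.25 (adjusted p = 0.356) and *Calr* at 0.31 (adjusted p = 0.0778), and neither was called. *Rcn3*, *Calu*, *Hspa5* and *Calr* act in the endoplasmic reticulum of most cell types, and 7 of the 8 epicardial and fibroblast markers were higher in the same libraries. The part of these cells in the list was not tested.

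Among 14 tested partners of the release channels 5 were higher and 1 lower, beside 15.9% higher and 12.8% lower of all tested genes. *Fkbp1b*, whose protein FKBP12.6 steadies the ryanodine receptor, had a log2 fold change of 0.61 (edgeR adjusted p = 0.0128), from a mean of 2.95 CPM in WT to 4.54 CPM in *Nrg1GOF*. The value stayed between 0.59 and 0.66 but was not called against either WT pair alone (adjusted p = 0.0613 and 0.0527), with WT pairs summed (0.0719), after thinning (0.0936) or with the atrial covariate (0.142). *Sri*, encoding the calcium sensor sorcin, had 0.29, and *Tmem38b*, encoding a potassium channel of the store, had 0.26. Of 6 dyad genes 1 was called, beside 28.7% of all tested genes. It was *Speg*, a kinase of the junction between store and surface membrane, at -0.34. Single libraries decided the calls of *Tmem38b*, lost on leaving out any 1 library other than *Nrg1GOF* 3 or 4 (adjusted p of 0.0618 to 0.0905), and *Speg*, lost without *Nrg1GOF* library 2 or WT library 4 (0.0502 to 0.0523). *Speg* stood at -0.09 (adjusted p = 0.579) under cardiomyocyte scaling. It was not called against WT libraries 1 and 2 alone (-0.25, adjusted p = 0.128), with WT pairs summed (0.0938) or with the atrial covariate (0.247). *Tmem38b* was also not called against either WT pair alone, with WT pairs summed or with the replicate block. Nor was it without the low count filter, after thinning or with the atrial covariate (adjusted p of 0.0598 to 0.203 over these settings). With that covariate *Sri* was not called either (0.29, adjusted p = 0.0777).

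Of 6 pump paralogs and regulators 1 was called, beside 28.7% of all tested genes. It was *Ppp1r1a*, encoding an inhibitor of protein phosphatase 1. Its level went from 29.6 ± 0.93 to 17.6 ± 2.21 CPM, a log2 fold change of -0.76 (edgeR adjusted p = 0.000215). *Sln*, encoding the atrial pump inhibitor sarcolipin, lay at 4.89, 3.98, 0.162 and 1.48 CPM in WT libraries 1 to 4 and at 10.2, 11.2, 14.2 and 1.88 CPM in *Nrg1GOF* libraries 1 to 4. *Nrg1GOF* library 4 thus lay within the WT range, and *Sln* was not called, with a log2 fold change of 1.89 (adjusted p = 0.0767). Without that library it was called, at 2.19. It was also called against WT libraries 3 and 4 alone, at 3.58 (adjusted p = 0.0129). The same held by limma-voom, under cardiomyocyte scaling, without the low count filter, after thinning and with the long gene covariate, with adjusted p between 0.0369 and 0.0498. With the atrial covariate, of which *Sln* is itself a part, its sign turned, at -1.03 (adjusted p = 0.195). Of 7 atrial markers, *Sln* among them, 4 were higher and 0 lower. *Mrln* held 0 to 6 counts per library and was not tested.

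At the cell surface 5 of 12 genes were higher and 1 lower, beside 15.9% higher and 12.8% lower of all tested genes. The exchangers *Slc8a2* and *Slc8a3*, paralogs of *Slc8a1* known from brain and skeletal muscle, had log2 fold changes of 0.70 (edgeR adjusted p = 0.00279) and 1.36 (adjusted p = 0.0209). The call of *Slc8a3* was lost without *Nrg1GOF* library 2 or 3 or WT library 4, with an adjusted p of 0.0517 to 0.0585. *Slc8a3* had a log2 fold change of 0.79 (adjusted p = 0.051) against WT libraries 1 and 2 alone and 0.40 (adjusted p = 0.642) with the atrial covariate, with which *Slc8a2* was not called either (0.57, adjusted p = 0.119). Both are minor forms, and *Slc8a1* remained 90.0% to 93.8% of the exchanger transcripts per kilobase in *Nrg1GOF*, beside 95.2% to 95.9% in WT. *Orai2*, a subunit of store-operated channels, had a log2 fold change of 0.80. The surface pump gene *Atp2b2* was low throughout, at 47 to 55 counts per library in WT and at 10, 14, 11 and 2 counts in *Nrg1GOF* libraries 1 to 4, the last under the 3 counts taken as the floor, with a log2 fold change of -2.16 (adjusted p = 0.000314).

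In mitochondria 3 of 12 genes were higher and 2 lower, beside 15.9% higher and 12.8% lower of all tested genes. *Mcu*, the pore of the calcium uniporter, had a log2 fold change of 0.38 and its paralog *Mcub* had 0.76, while the outer membrane channel *Vdac1* had -0.29. *Vdac1* stood at -0.054 (adjusted p = 0.463) under cardiomyocyte scaling, at -0.26 (0.0525) against WT libraries 1 and 2 alone, at -0.29 (0.0507) with WT pairs summed and at -0.18 (0.227) with the atrial covariate. With that covariate *Mcu* stood at 0.30 (adjusted p = 0.063). Among 19 kinases, phosphatases and phosphodiesterases 4 were higher and 8 lower, with a median of -0.15. *Prkar2b*, a regulatory subunit of protein kinase A, stood at -0.63, and *Camk2a*, a calmodulin-dependent kinase gene, at -0.57. Both stayed called over the alternatives run, at -0.68 to -0.38 for *Prkar2b* and -0.67 to -0.33 for *Camk2a*. *Rcan1*, a regulator of calcineurin, rose from 150 ± 1.43 to 228 ± 19.5 CPM, a log2 fold change of 0.60 (edgeR adjusted p = 0.000158), and *Camk2b* stood at 0.40. The call of *Mcub* held without WT library 2 but was lost without any 1 of the other 7 libraries (adjusted p of 0.0544 to 0.0991), and that of *Camk2b* without *Nrg1GOF* library 1 or 2 or WT library 2 or 3 (0.0545 to 0.0787). Neither gene was called against either WT pair alone, with WT pairs summed, without the low count filter or with the atrial covariate, and *Mcub* was not called by DESeq2, with the replicate block or with the long gene covariate, nor *Camk2b* after thinning.

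**Figure D5:**
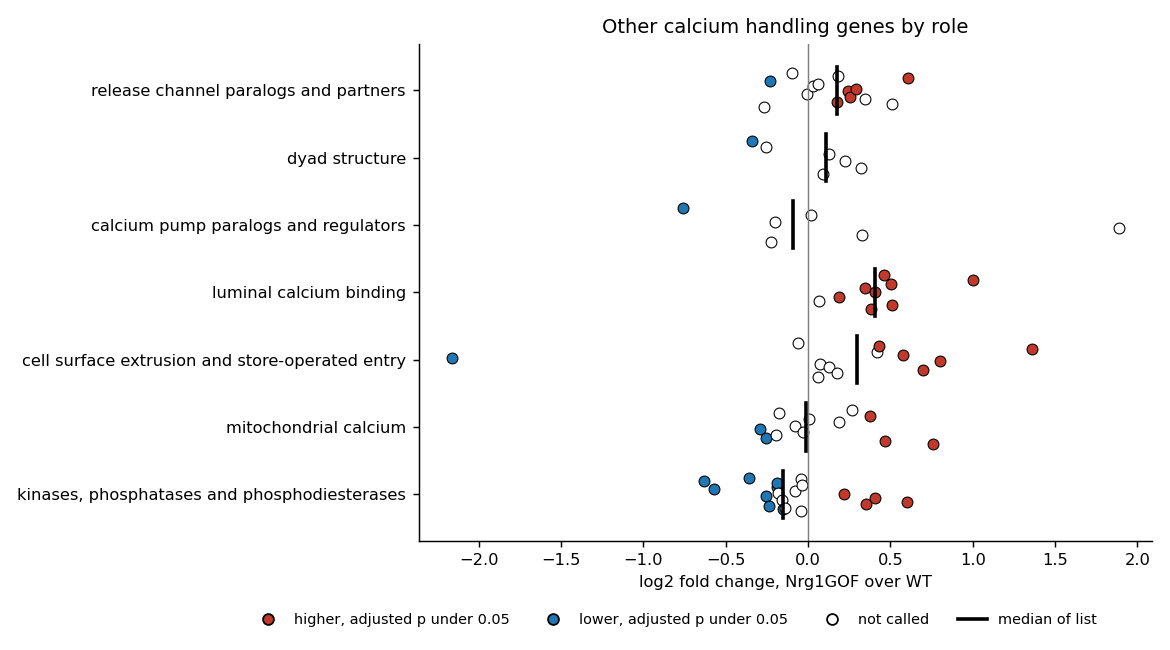
Log2 fold change of *Nrg1GOF* over WT for the 78 tested genes of 7 role lists, one row per list. Points are genes, red where called higher, blue where called lower and white where not called, and black lines are list medians. The luminal calcium-binding list, with 8 of 9 genes called, lies furthest to the right, with a median of 0.41.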

How the data were processed

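The deposited values are expected counts of each gene, which the authors made with RSEM 1.3.1 and cutadapt on GRCm38 and Ensembl 91 per the submitters' notes and the table's name. The library kit was directional and reads were single, of 60 bases. The aligner and strand setting were not given in the sources used here. Expected counts, of which 8.4% to 13.2% per library were not whole, were rounded. Genes were kept with filterByExpr, libraries scaled by TMM, and *Nrg1GOF* compared with WT by the edgeR 4.0.16 quasi-likelihood test (R 4.3.3), with Benjamini-Hochberg adjustment over all 15580 tested genes. SE is the absolute log2 fold change over the square root of F. The study also used edgeR and a false discovery rate of 0.05. Count ratios, with 0.5 added, were tested by exact permutation (SciPy 1.17.1). The test was checked on simulated counts.

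The members and lists were chosen with earlier results of these data known. Named genes are the 10 members, their paralogs, the pump regulators, up to 4 called genes with the largest absolute change per role list, *Nrg1*, and the 3 closest profiles to the highest and lowest member. Marker genes, *Srl*, the exon overlaps of *Pln* and the genes not tested were also named. Some genes that this rule names are not reported here.

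Coordinates and exon lengths came from GENCODE M21 (GRCm38), a later release than that used for counting, and promoters from RefSeq. The smallest level a library could show, taken as 3 counts, was 0.112 to 0.373 CPM of the unscaled total, and floors cover counting error only, since reads carried no molecular identifiers. Each library is labelled as a separate ventricle, but p-values measure the spread between these libraries, which may be in part technical. Deviations from the group means correlated at 0.049 to 0.199 between libraries of the same replicate number and at -0.263 to 0.187 between others, so the numbers were not taken as pairs. Alternatives were DESeq2 1.42.0, limma-voom (limma 3.58.1), 3 scalings, 2 filters, the replicate block, WT pairs summed or alone, thinning, an atrial covariate, stricter thresholds and leaving out each library. A covariate of long genes was added after the data were seen.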

Additional observations from a re-analysis of the deposited data

Results flagged for a closer look

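Dixon's test of the highest and lowest of 4 libraries was applied to 34 groups, of which chance alone would flag about 1.7 (1 in 20), and 2 were flagged. *Itpr1* in *Nrg1GOF* had library 1 at 136 CPM, with the other 3 between 124 and 126 CPM, so that the gap took 0.849 of the whole range. Without this library the log2 fold change of *Itpr1* was 0.28 and, as with all libraries, not called. The library total in *Nrg1GOF* had library 4 at 8038641 expected counts, with the other 3 between 20578081 and 22547833, a gap of 0.864 of the range. With all libraries thinned to that depth, the same number of the 10 genes was called, 6.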

How the results depend on the processing

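Of 1003 values under alternatives, 861 kept their direction and side of the threshold, or a count within 1.5 times. *Atp2a2* (log2 fold change -0.95 to -0.66), *Pln* (-0.73 to -0.43) and *Casq1* (1.38 to 1.74) stayed called in the same direction under every alternative run. Of all genes, of the 10 genes and of the calcium handling genes, 4467, 6 and 39 were called. These counts were 2464, 3 and 21 with WT pairs summed (fewer samples), 1338, 3 and 12 with the atrial covariate and 2008, 3 and 14 with a minimum log2 change of 0.5. At an adjusted p under 0.01, 2535 genes and 23 calcium handling genes were called, and against WT libraries 1 and 2 alone 24 calcium handling genes were. Leaving out single libraries gave 3239 to 4261 genes, 5 to 7 of the 10 and 26 to 42 calcium handling genes. Higher genes made up 55.4% of all calls, 65.4% under library totals and 92.3% under cardiomyocyte scaling.

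The replicate block gave 4524, 8 and 41 calls, of which 4093 genes were shared. It brought in *Ryr2* (-0.63, adjusted p = 0.0214) and *Itpr1* (0.33, adjusted p = 0.0354) among the 10 genes and *Itpr2* among their paralogs. Of the 8 libraries 4 correlated best with their own number and the rest with another number, a hint from the data and not the design. *Casq2*, *Trdn* and *Jph2* were not called with WT pairs summed (0.35, -0.32 and -0.34) or with the atrial covariate (0.38, -0.28 and -0.27), although their fold changes stayed near the main values, and *Casq2* was not called against WT libraries 1 and 2 alone (0.29). Reversed were *Slc8a1* (-0.18 against WT libraries 1 and 2 alone, -0.13 with the atrial covariate, -0.068 with the long gene covariate, -0.084 without *Nrg1GOF* library 1, -0.055 and -0.062 without WT library 3 or 4, and up to 0.11 without *Nrg1GOF* library 3), *Ryr3* (-0.55) and *Sln* (-1.03, itself one of the markers averaged) with the atrial covariate, and *Itpr3* (-0.072 against WT libraries 1 and 2 alone, -0.031 with the atrial covariate). The cause was not tested. The log2 ratios without single libraries were 1.10 to 1.20 for *Casq1* to *Casq2*, 0.85 to 1.06 for *Itpr1* to *Ryr2* and 0.85 to 1.00 for *Slc8a1* to *Atp2a2*.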
